A study of Mus musculus with 4 samples.

Results

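Fatty acid oxidation and ketogenesis were followed through 36 genes in mouse liver. The genes are those with a named role in the pathway. They were taken as a fixed list of symbols and matched to the gene names of the array. The rule uses no measured value. The list itself was chosen with earlier results of these data known, so its shares beside those of all genes are descriptions. All 36 had a probe that was kept, among 16054 genes with a kept probe and 31708 named genes on the array. By role, 18 act in mitochondria, 10 in peroxisomes, 2 in ketone body metabolism and 2 in omega-oxidation, and 4 are regulators or other targets of PPARA. The animals were C57BL/6J males of 8 to 12 weeks. Those called fasted were without food for 24 h, and refed mice were fasted for the same 24 h and then had food for 2 h, so that both groups had been fasted and no continuously fed group was compared. RNA of 4 fasted and 4 refed livers, 200 ng of each, was labelled with a red dye (Cy5) or a green one (Cy3) and measured on 4 two-colour oligonucleotide arrays.

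Each array held 1 fasted and 1 refed liver (n = 4), and arrays are numbered as replicates. Fasted RNA carried Cy5 on replicates 1 and 2 and Cy3 on replicates 3 and 4. Ratios are given as log2 of fasted over refed, so that values above 0 mean more RNA of the gene in the fasted liver. A gene was called at an adjusted p under 0.10 in limma together with a change of at least 1.5-fold, and each gene is represented by its brightest probe unless another is named. The precision of every value is limited by the number of arrays. In whole liver, a change in RNA per cell and a change in the share of cells that carry the RNA cannot be told apart.

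In fasting, fatty acids released from adipose tissue are taken up by the liver, activated to acyl-CoA and carried into mitochondria by the carnitine shuttle. Each round of beta-oxidation there shortens the chain and yields acetyl-CoA, much of which hepatocytes turn into ketone bodies for export. Peroxisomes shorten very long chains, omega-oxidation in the endoplasmic reticulum handles fatty acids from their methyl end, and the nuclear receptor PPARA, which binds DNA with RXR at elements called DR1 (2 copies of AGGTCA with 1 base between them), drives many of these genes.

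Transcripts of other tissues stood apart on some arrays. Pancreatic acinar markers were far lower in the ratio of replicate 3, with a list median of -3.37 against 0.05, -0.01 and 0.04 on replicates 1, 2 and 4. Their summed signal was 33846 in the refed liver of replicate 3 and between 1631 and 2511 in the other 7 livers, with all 11 listed genes on the array and 4 kept. Blood markers had list medians of 2.08, -0.26, 2.44 and 0.34 on replicates 1 to 4, and their summed signal ranged from 60647 to 248853 in fasted livers and from 32732 to 79818 in refed livers, over 5 genes that were all kept. All 7 hepatocyte markers were well above background in every liver, with summed signals of 372863 to 464746 in fasted and 342425 to 423534 in refed livers, and their list median was 0.10. None of the 4 muscle markers was ever above background, and among the adipose markers Lep and Plin1 never were. The part that pancreatic or blood RNA has in the ratios of the 36 genes was not tested. With all arrays the median of the 36 genes was 0.28 and 2 were called higher, where 1.82% of all genes were. Without replicate 3 these were 0.26 and 1 (1.15% of all genes, and Pdk4 lost its call), and without replicate 1 they were 0.41 and 9 (2.2% of all genes).

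The promoters of the 2 called genes, Pdk4 and Cpt1a, are shown because no other gene of the 36 was called. Each line gives the 250 bases before the start of a RefSeq transcript (GRCm38.p6), read in the direction of the gene, and capitals mark a stretch that comes closest to the DR1 element on either strand (the first of 3 equally close in Pdk4 and of 2 in Cpt1a). Pdk4 lies on the minus strand (chr6:5496279-5496528) and Cpt1a on the plus strand (chr19:3323051-3323300).
Pdk4: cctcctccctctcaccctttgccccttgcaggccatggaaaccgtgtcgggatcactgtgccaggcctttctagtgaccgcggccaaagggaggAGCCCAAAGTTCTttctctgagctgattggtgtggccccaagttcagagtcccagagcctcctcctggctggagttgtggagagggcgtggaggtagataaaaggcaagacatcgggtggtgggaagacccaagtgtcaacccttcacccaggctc
Cpt1a: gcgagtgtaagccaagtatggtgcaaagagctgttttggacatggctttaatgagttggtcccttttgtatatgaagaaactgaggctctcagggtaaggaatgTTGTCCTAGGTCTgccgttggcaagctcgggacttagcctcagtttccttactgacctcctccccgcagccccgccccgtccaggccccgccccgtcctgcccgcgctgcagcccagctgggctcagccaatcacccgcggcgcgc
The marked stretches differ from the element at 4 of its 12 fixed letters, and 74.5% of all promoters hold one at least as close, so these 2 windows carry no clear match.

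Matches with at most 2 mismatches were found in 3 of the 28 genes that had a promoter in the RefSeq table, or 10.7%, against 4.4% of 27025 genes with a window of 250 bases before to 50 after the start. The 8 genes without an entry were Acaa2, Acat1, Crat, Cyp4a10, Cyp4a14, Decr1, Hsd17b4 and Vnn1. The 3 matches are shown because DR1 is the element that PPARA binds, with the 13 bases of the match in capitals and 8 bases on each side. The match lies at -13 to -1 from the start in Acot4 (chr12:84038358-84038386, plus strand), at -77 to -65 in Etfa (chr9:55512300-55512328, minus strand) and at 6 to 18 in Slc25a20 (chr9:108662134-108662162, plus strand).
Acot4: ccgaagcaTGACCTTTGGCCGgtctgtgc
Etfa: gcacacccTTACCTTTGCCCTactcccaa
Slc25a20: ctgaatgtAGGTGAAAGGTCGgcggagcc
The Acot4 and Etfa matches read on the opposite strand. The short site of the cAMP response element, TGACG, stood in 6 of the 28 windows (21.4%) against 23.0% of all genes, and TGACGTCA with at most 1 mismatch in 1 of 28 (3.57%) against 14.2%. Both were searched on both strands, and a full site can contain the short one.
The short sites of Ehhadh (chr16:21788001-21788021, minus strand) and Acadm (chr3:153944652-153944672, minus strand) are shown as examples of the motif on either strand of the window, with the motif in capitals.
Ehhadh: catgtgatTGACGttggtggt
Acadm: cttggaccCGTCAtccctctg

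The pathway as a whole leaned towards fasted liver by a small amount, and few single genes passed the test. The mean log2 ratio was above 0 for 34 of the 36 genes, and the median over the 36 was 0.28, against 0.00 over all genes, of which 8148 of 16054 (50.8%) had a mean above 0. With median centring in place of loess the median over the 36 was 0.15 and 32 were above 0, where 37.4% of all genes were. Limma called 2 of the 36 higher (5.56%), where 1.82% of all genes were called higher. It called 0 lower, where 2.13% of all genes were called lower, and 0 were lower at an unadjusted p under 0.05 (11.8% of all genes) or by a rebuilt SAM, the test the study used (2.25% of all genes). At an unadjusted p under 0.05 in limma, 14 of the 36 were higher, where 10.3% of all genes were. Rebuilt SAM called 5 higher, where it called 2.11% of all genes. Without the fold limit, 5 genes (Pdk4, Cpt1a, Acsl1, Crot and Acadvl) were higher at an adjusted p under 0.10, where the same rule took 4.96% of all genes. A positive ratio on all 4 arrays was seen for 11 of the 36 (30.6%), against 14.1% of all genes, and a negative one on all 4 for 0, against 15.7% of all genes.

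**Figure D1:**
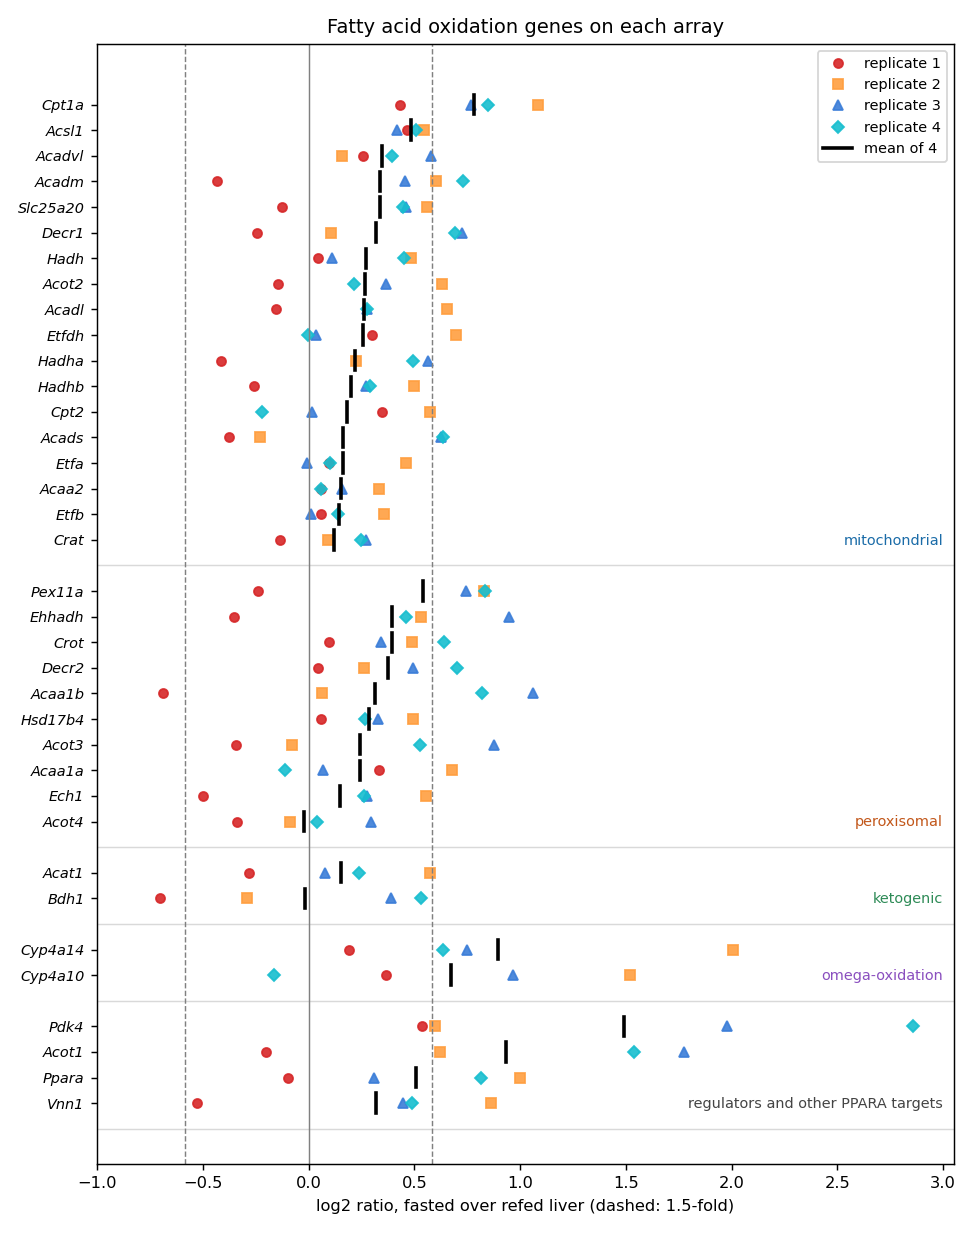
Log2 ratio of fasted over refed liver for each of the 36 genes on each of the 4 arrays (x axis), grouped by role (y axis), with the mean as a black bar and 1.5-fold as dashed lines. Most means lie right of 0, and the red points of replicate 1 are the lowest of the 4 for 28 of the 36 genes.

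**Figure D2:**
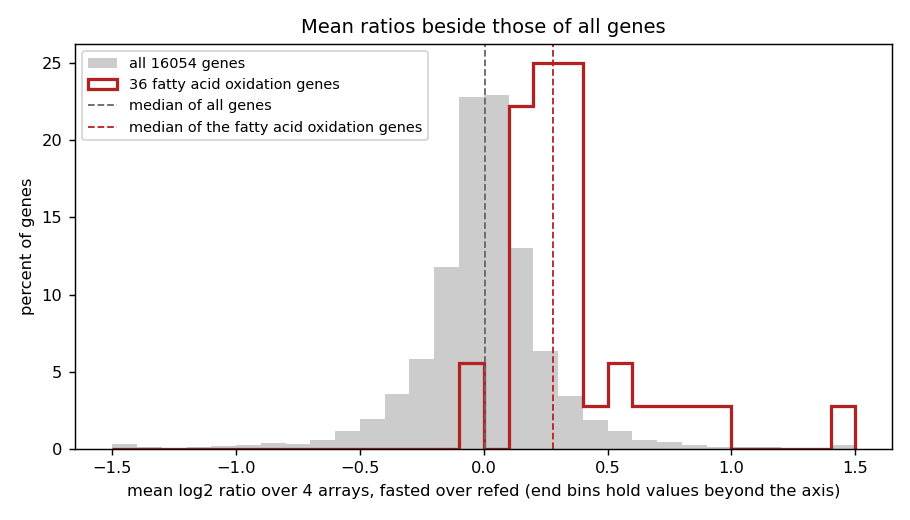
Percent of genes (y axis) by mean log2 ratio over 4 arrays in bins of equal width (x axis), for all 16054 genes in grey and for the 36 fatty acid oxidation genes as a red line. The dashed lines are the medians, 0.00 for all genes and 0.28 for the 36.

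Pdk4 had the largest mean of the 36, though not with the background fitted on all spots. It encodes a kinase that switches off pyruvate dehydrogenase and so spares glucose while fat is burned. Its log2 ratio was 0.54, 0.60, 1.98 and 2.86 on replicates 1 to 4, all higher in fasted liver but with both arrays of one dye orientation well above both of the other. The mean was 1.49 ± 1.13 (SD, n = 4), or 2.81-fold, with an adjusted p of 0.0837 in limma. The log2 level was 7.50, 7.80, 8.94 and 9.86 in the fasted livers and 6.96, 7.20, 6.96 and 6.998 in the refed livers. The groups did not overlap, and most of the spread was in the fasted livers. The refed levels were low, near those of the dim Acot2 probe (6.48 to 7.16 in refed livers). Whether the small spread of the refed levels comes from this was not tested. A dye effect, meaning a Cy5 over Cy3 difference shared by both orientations, was estimated at -0.93 for Pdk4 (adjusted p of 0.0332 in limma). Since the 2 orientations hold different livers, dye and liver cannot be told apart here. Pdk4 lost its call without replicate 2 (mean 1.79, adjusted p of 0.123), without replicate 3 (1.33, 0.254) and without replicate 4 (1.04, 0.165), and its adjusted p ranged from 0.00278 to 0.559 over all alternatives. With the background fitted on all spots its mean was 0.37 (adjusted p of 0.559 in limma).

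Cpt1a encodes the liver form of carnitine palmitoyltransferase 1, which commits long-chain fatty acids to entry into mitochondria. Its log2 ratio was 0.43, 1.08, 0.77 and 0.85 on replicates 1 to 4. The fasted liver was higher on every array, and the mean was 0.78 ± 0.27 (SD, n = 4), or 1.72-fold, with an adjusted p of 0.0195 in limma. A second probe gave 0.84 and was called as well (adjusted p of 0.0206). The log2 level was 13.78, 13.45, 13.01 and 13.05 in the fasted livers and 13.35, 12.37, 12.25 and 12.20 in the refed livers. The refed liver of replicate 1 lay above 2 of the fasted livers, while the other 3 refed livers lay below all 4. The call held when any 1 array was left out, and was lost with the background fitted on all spots (mean 0.71, adjusted p of 0.552 in limma) and, by construction, at a 2-fold limit. The probes of both called genes are placed in the mm9 build by the files, Cpt1a on chromosome 19 at 3385374 to 3385433 and Pdk4 on chromosome 6 at 5433441 to 5433500, with no statement of the exon or UTR covered.

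Among the genes that bring fatty acids into the mitochondrion, Acsl1 had the tightest ratios of all. Acsl1 activates long-chain fatty acids to acyl-CoA. Its log2 ratio was 0.47, 0.54, 0.42 and 0.51 on replicates 1 to 4, with a mean of 0.48 ± 0.054 (SD, n = 4) and an adjusted p of 0.0183 in limma. It passed the p limit and missed the 1.5-fold limit at 1.40-fold. A second, dimmer Acsl1 probe disagreed in shape, with 0.02, 0.06, 0.82 and 0.95 and an adjusted p of 0.209.

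The carnitine carrier Slc25a20, whose DR1-like stretch is shown above, was at -0.13, 0.56, 0.46 and 0.45 on replicates 1 to 4. It was lower in the fasted liver of replicate 1 and higher by similar amounts on the other arrays, with a mean of 0.34 ± 0.31 (SD, n = 4) and an adjusted p of 0.19 in limma. Cpt2, which moves the acyl group from carnitine back to CoA inside the mitochondrion, had a mean of 0.18. Crat, which joins short chains to carnitine, had a mean of 0.12. The value of this dim probe moved with the background step, from -0.01 with the fit on all spots to 0.22 with plain subtraction. It was 0.35 with the processed signals, a setting that also leaves out loess.

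The acyl-CoA dehydrogenases, which take the first step of each round of beta-oxidation, had means from 0.16 to 0.35, and no difference between them was tested. Acadvl, the enzyme for very long chains, was at 0.26, 0.16, 0.58 and 0.39 on replicates 1 to 4. It was positive on all arrays, with a mean of 0.35 ± 0.18 (SD, n = 4) and an adjusted p of 0.0834 in limma, below the 1.5-fold limit. Acadm, the enzyme for medium chains, was at -0.43, 0.60, 0.46 and 0.73 on replicates 1 to 4, with a mean of 0.34 and an adjusted p of 0.382. Acadl, for long chains, and Acads, for short chains, had means of 0.26 and 0.16. The Acads ratios split by dye orientation, at -0.38 and -0.23 on replicates 1 and 2 and at 0.62 and 0.64 on replicates 3 and 4.

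For the later steps and the electron carriers the means ran from 0.14 to 0.32. Hadha and Hadhb, the subunits of the trifunctional protein, had means of 0.22 and 0.20. Hadh, the short-chain hydroxyacyl-CoA dehydrogenase, and Acaa2, the mitochondrial thiolase, had means of 0.27 and 0.15. Decr1, which handles unsaturated chains, had a mean of 0.32 and the thioesterase Acot2 one of 0.27, a dim probe that gave 0.12 with the background fitted on all spots and 0.60 with the processed signals. Etfa and Etfb, which pass electrons from the dehydrogenases, had means of 0.16 and 0.14, and Etfdh, which hands those electrons to ubiquinone, one of 0.26. No call was made among these 9, and their adjusted p lay between 0.191 and 0.529 in limma. All 18 mitochondrial genes had a mean above 0 (50.8% of all genes), and 16 had one with median centring or with the background fitted on all spots. Of the 18, 3 passed the p limit (4.96% of all genes) and 1 was called (1.82%), and their median was 0.26.

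The 10 peroxisomal genes had a median of 0.30, with 9 means above 0 (50.8% of all genes) and 0 calls by limma or rebuilt SAM, which called 1.82% and 2.11% of all genes higher. At an unadjusted p under 0.05 in limma 4 of the 10 were higher, where 10.3% of all genes were. Crot, which moves shortened chains onto carnitine for export from peroxisomes, was the 1 that passed the p limit. Its log2 ratio was 0.10, 0.49, 0.34 and 0.64 on replicates 1 to 4, with a mean of 0.39 ± 0.23 (SD, n = 4) and an adjusted p of 0.0838 in limma. Pex11a, which takes part in the division of peroxisomes, was at -0.24, 0.83, 0.74 and 0.84, with a mean of 0.54 and an adjusted p of 0.168. Replicates 2 to 4 lay close together and far from replicate 1. Ehhadh, the peroxisomal bifunctional enzyme, was at -0.35, 0.53, 0.95 and 0.46, with a mean of 0.40 and an adjusted p of 0.321.

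The peroxisomal thiolases differed in their spread. Acaa1b was at -0.69, 0.06, 1.06 and 0.82 on replicates 1 to 4, the widest range of the group, with a mean of 0.31. Acaa1a was at 0.33, 0.68, 0.07 and -0.11, with a mean of 0.24, so that the 2 thiolases were highest on different arrays. Probes of different genes among the 36 shared at most 57.5% of their bases in an ungapped comparison over at least 40 overlapping bases. The rest of the peroxisomal group included Decr2 (mean 0.38), which handles unsaturated chains, and Hsd17b4 (0.29), the second bifunctional enzyme. The others were Ech1 (0.15), a dienoyl-CoA isomerase, and the thioesterases Acot3 (0.24) and Acot4 (-0.02). Adjusted p of all of these lay between 0.131 and 0.94 in limma.

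Neither limma nor rebuilt SAM called any of the 2 genes of ketone body metabolism (0 calls). An unadjusted p under 0.05 in limma was seen for 0 of them. Of all genes, limma called 1.82% higher and 2.13% lower, and SAM 2.11% and 2.25%. At an unadjusted p under 0.05 in limma, 10.3% were higher and 11.8% lower. With 2 genes, counts of 0 do not set them apart from all genes. Acat1, the thiolase that joins acetyl-CoA units at the entry to ketogenesis, was at -0.28, 0.57, 0.08 and 0.24 on replicates 1 to 4, with a mean of 0.15 ± 0.36 (SD, n = 4) and an adjusted p of 0.61 in limma. Bdh1, which turns acetoacetate into beta-hydroxybutyrate, was at -0.70, -0.29, 0.39 and 0.53, with a mean of -0.02 ± 0.58 (SD, n = 4) and an adjusted p of 0.975. Its sign followed the dye orientation, and the 2 dimmer Bdh1 probes had means of -0.07 and 0.06.

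The omega-oxidation genes had large and uneven ratios. Cyp4a14 and Cyp4a10 are fatty acid hydroxylases and classic PPARA targets. Cyp4a14 was at 0.19, 2.01, 0.75 and 0.64 on replicates 1 to 4, positive on all arrays, with a mean of 0.90 ± 0.78 (SD, n = 4) and an adjusted p of 0.124 in limma. Cyp4a10 was at 0.36, 1.52, 0.97 and -0.16, with a mean of 0.67 ± 0.73 (SD, n = 4) and an adjusted p of 0.203. The 2 further Cyp4a10 probes had means of 0.64 and 0.58, and the second of them passed the p limit (adjusted p of 0.0928) just under 1.5-fold. That probe also matches transcripts of Cyp4a32, so its signal cannot be assigned to Cyp4a10 alone. Both genes were largest on replicate 2.

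Of the regulators and other targets, Ppara itself was not called. It was at -0.10, 1.001, 0.31 and 0.82 on replicates 1 to 4, with a mean of 0.51 ± 0.50 (SD, n = 4) and an adjusted p of 0.177 in limma. The other 2 Ppara probes had means of 0.54 and 0.60, and the first passed the p limit (adjusted p of 0.0809) below 1.5-fold. Acot1, a cytosolic thioesterase, was at -0.20, 0.62, 1.78 and 1.54, with a mean of 0.93 and an adjusted p of 0.155. Vnn1, a pantetheinase, was at -0.53, 0.86, 0.44 and 0.49, with a mean of 0.32 and an adjusted p of 0.467. Both had their lowest ratio on replicate 1, and only Pdk4 of these 4 was positive there.

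Replicate 1 was the array on which the pathway leaned least. The median ratio of the 36 genes was -0.13 there and 0.54, 0.41 and 0.46 on replicates 2 to 4. By class it was -0.04 for the mitochondrial genes on replicate 1 against 0.32 to 0.49 on the others, and -0.29 for the peroxisomal genes against 0.42 to 0.49. For the 2 omega-oxidation genes replicate 1 was not the lowest, with a median of 0.28 against 0.24 on replicate 4. Replicate 1 had the lowest of the 4 ratios for 28 of the 36 genes (77.8%), against 24.8% of all genes. On replicate 1, 16 of the 36 (44.4%) were above 0, against 50.1% of all genes.

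In the median over the 36 genes, the refed liver of replicate 1 lay further from its group than the fasted one did. Among the 4 refed livers, the one on replicate 1 had the highest level for 33 of the 36 genes (91.7%), where it was highest for 33.4% of all genes, for 62.9% of the 124 further genes of fatty acid and ketone body metabolism described below and for 62.8% of the 290 other genes called higher. The median of its level over the mean of the other 3 refed livers was 0.59 on the log2 scale over the 36 genes, 0.29 over the 290 other genes called higher and 0.01 over all genes. The fasted liver of replicate 1 was highest for 12 of the 36 (33.3%), with a median difference of 0.08. Between replicates 1 and 2, which share the dye orientation, the refed livers differed by a median of 0.56 over the 36 genes and the fasted livers by -0.02.

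Acadm and Vnn1 are among the genes with the largest difference in that refed liver. Acadm had log2 levels of 14.16, 13.27, 12.98 and 12.87 in the refed livers of replicates 1 to 4 and of 13.73, 13.87, 13.43 and 13.60 in the fasted livers. The refed liver of replicate 1 had the highest of the 8 levels, and the other 3 refed livers had the lowest. Vnn1 had 11.37, 9.93, 10.07 and 10.21 in the refed livers and 10.84, 10.79, 10.52 and 10.70 in the fasted livers, with the same order. Acsl1 did not share this order, at 15.22, 15.11, 15.16 and 15.32 in the refed livers and 15.69, 15.65, 15.58 and 15.83 in the fasted livers. For 5 of the 36 genes (Pdk4, Acot1, Ppara, Acot3 and Acot4) the fasted liver of replicate 1 lay below the mean of the other 3 fasted livers by more than its refed partner differed from the mean of the other 3 refed livers. For Pdk4 these differences were -1.37 in the fasted and -0.09 in the refed liver, for Acot1 -0.91 and 0.61, and for Ppara -0.47 and 0.34.

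Some marker lists of other cells were at an extreme in the refed liver of replicate 1, and others were not. Its summed blood signal was the lowest of all 8 livers (32732, against 42167 to 248853). Its summed immune signal was also the lowest (2911, against 3592 to 4613) and its summed stellate signal the highest (15210, against 9991 to 13907). Within the range of the other livers lay its endothelial (4605, against 4301 to 5982), adipose (958, against 911 to 1312) and cholangiocyte signals (378, against 366 to 601). Its summed hepatocyte signal (368101) lay within the range of the other refed livers, and its acinar signal was 1783. The part that RNA of these cells has in the levels was not tested.

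**Figure D3:**
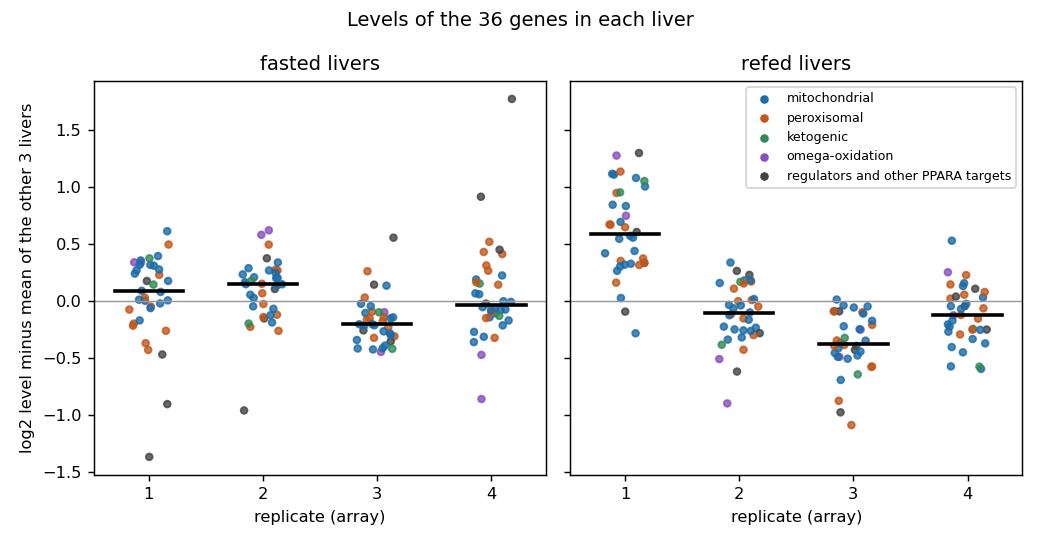
Log2 level of each of the 36 genes in each liver minus the mean of the other 3 livers of its condition (y axis), by replicate (x axis), with fasted livers on the left, refed livers on the right, colours for roles and bars for medians. The refed liver of replicate 1 stands at a median of 0.59, and the other 7 medians lie between -0.38 and 0.15.

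Without replicate 1, more of the pathway passed the test. Limma then called 9 of the 36 genes (25%) higher, where 2.2% of all genes were called, and the median over the 36 was 0.41. The 9 were Pdk4 (mean 1.81), Acot1 (1.31), Cyp4a14 (1.13), Cpt1a (0.90), Pex11a (0.80), Ppara (0.71), Ehhadh (0.65), Vnn1 (0.60) and Acadm (0.60), with adjusted p between 0.0146 and 0.0922. This leaves out the array with the lowest ratios, so that a larger count is built into the choice of array and the values are a description. On replicates 2 to 4, 27 of the 36 genes were positive on every array, against 3268 of 16054 genes.

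**Figure D4:**
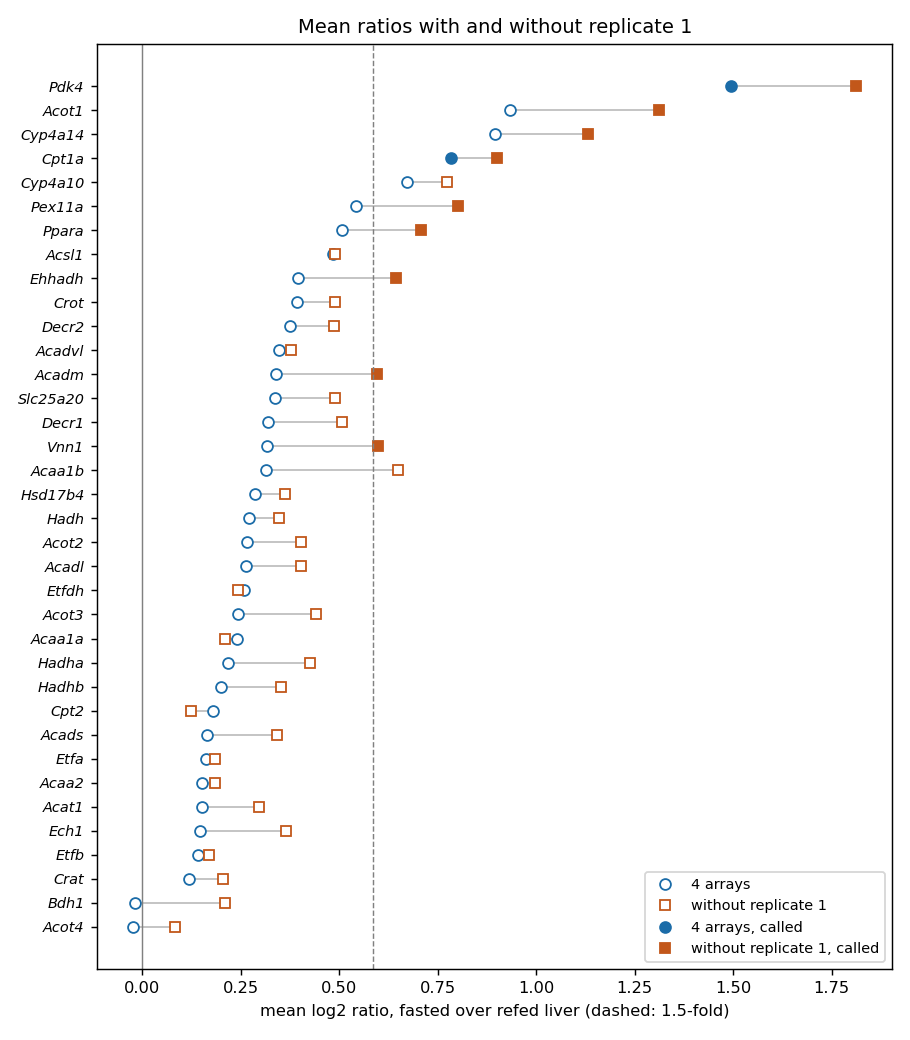
Mean log2 ratio of fasted over refed liver (x axis) of each of the 36 genes (y axis) over 4 arrays (blue circles) and without replicate 1 (orange squares), filled where called, with 1.5-fold dashed. Filled circles stand at Pdk4 and Cpt1a, and filled squares at 9 genes.

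A dye effect passed an adjusted p of 0.10 in limma for 8 of the 36 genes (22.2%), where 15.4% of all genes had one. Of the 8, 7 were brighter in Cy3 and 1 in Cy5. They were Pdk4, Acot1, Acaa1b, Acads, Bdh1, Acot3 and Decr1, and Cpt2 as the one brighter in Cy5. Over the 36 genes, which do not vary independently, the correlation of ratios was 0.46 for replicates 1 and 2, 0.81 for replicates 3 and 4, and 0.00 to 0.11 for the 4 pairs of arrays that differ in orientation. Over all kept probes these values were 0.66, 0.75 and 0.22 to 0.40. With a dye term in the model 4 of the 36 were called, Pdk4, Acot1, Cyp4a14 and Cpt1a, where 2.08% of all genes were called higher.

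Beside the 36, 132 further genes of fatty acid and ketone body metabolism were listed in 9 groups, of which 124 had a kept probe. Limma called 9 of the 124 higher (7.26%) and 3 lower (2.42%), where 1.82% and 2.13% of all genes were called. Of the 124, 21 (16.9%) were higher and 5 (4.03%) lower at the p limit alone, where 4.96% and 6.29% of all genes were. The median over the 124 was 0.13. Of the 9 called higher, 7 are named here. The fasting hormone Fgf21 and the lipase inhibitor Angptl4, both PPARA targets outside oxidation, were higher by 1.11 and 2.95, and the lipid droplet coat proteins Plin2 and Plin4 by 0.63 and 1.11. Among PPARA partners, the phosphatidate phosphatase and coactivator Lpin1 was higher by 2.67 and the coactivator Ppargc1a by 1.20. The adjusted p of these 6 lay between 0.00249 and 0.0707 in limma.

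Pdp2, a phosphatase that opposes kinases such as Pdk4 and turns pyruvate dehydrogenase back on, was higher by 0.69 (adjusted p of 0.0716 in limma). The 3 genes called lower were Aacs, which returns acetoacetate to the cytosolic pool for lipid synthesis, at -1.65, the peroxisomal CoA hydrolase Nudt7 at -1.19 and the hydroxylase Cyp4f14 at -0.68. Each of these 3 was lower in the fasted liver of every array, with adjusted p of 0.0086, 0.0292 and 0.0628 in limma. The groups they belong to did not share their sign in the median, at 0.02 for the other ketone body genes, 0.12 for the other peroxisomal and 0.22 for the other omega-oxidation genes. The calls named here are not all the calls of these groups, so the direction of a group cannot be read from them. Of the 14 kept genes of fatty acid uptake and activation, the 14 of other mitochondrial oxidation and the 7 of coenzyme A supply, limma called 0, with 4, 3 and 1 higher and 0, 0 and 1 lower at an unadjusted p under 0.05. Rebuilt SAM called 1, 0 and 0 of them. Of all genes, 1.82% were called higher by limma and 2.11% by SAM, and 10.3% were higher and 11.8% lower at an unadjusted p under 0.05.

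**Figure D5:**
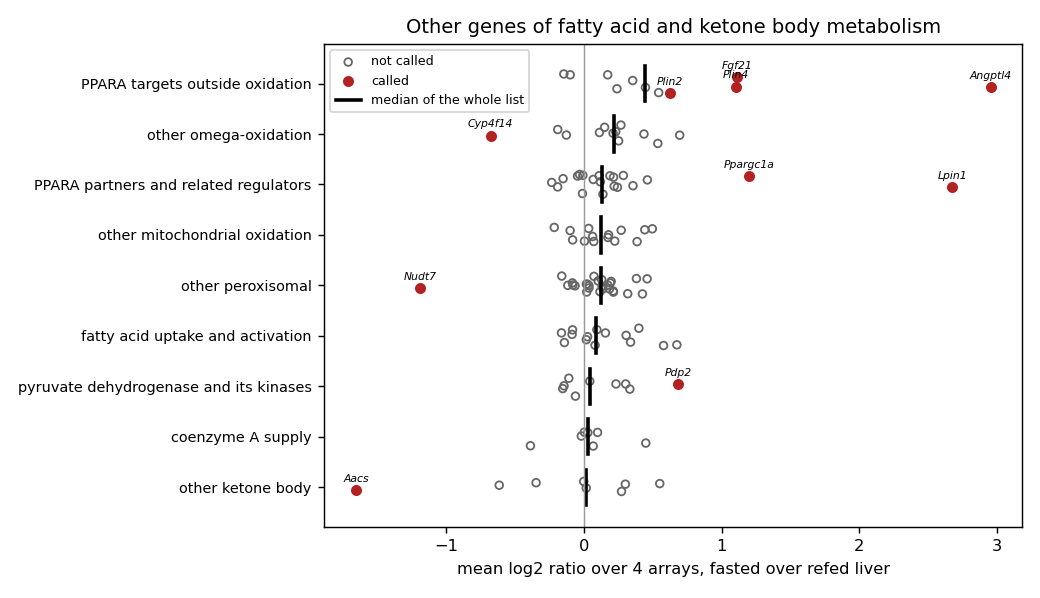
Mean log2 ratio of fasted over refed liver over 4 arrays (x axis) for further genes by group (y axis), with called genes filled and named and a bar at the median of each whole group. The medians run from 0.02 for the other ketone body genes to 0.45 for PPARA targets outside oxidation.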

How the data were processed

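Total RNA of individual livers, 4 fasted and 4 refed, was compared in a dye swap on 4 Agilent arrays, all on 1 slide and in 1 scan. The authors deposited raw spot intensity (pixel medians and means) with local background, quality flags and the software's processed intensity, and a second table of log2 ratios that they had normalized by print-tip loess in limma. Row numbers tie that table to the spots (r of 0.975 to 0.992 per array with the ratios computed here), and its 4 columns run as fasted over refed with medians of -0.12 to 0.06. Its background step is not given in the sources used here.

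Median signals of 43020 gene spots per array were corrected by normexp (offset 50) and normalized by loess within arrays in limma 3.58.1 (R 4.3.3). Before the fit, 55 of 177588 spots whose local background exceeded 3 times the array median were left out. Spots with quality flags (197 to 322 per array) were left out, and 0 were saturated. Median signals were 40 to 75 (red) and 44 to 96 (green), over backgrounds of 25 to 35 and 20 to 33. Probes well above background on all 4 arrays in at least 1 condition were kept (19721 of 39429). Single-channel levels were taken after loess and Aquantile and may carry dye bias. Ratios were tested with lmFit and eBayes, two-sided, without a dye term, with Benjamini-Hochberg adjustment over kept probes. A gene entered by its brightest kept probe. All 36 genes are named, and of the 132 others those called (at most 12), except 2 called higher that are not reported here. In a test on simulated data (19721 probes, 200 of them shifted by 1.5 in log2), the fit for fasted over refed liver recovered 98.5%, with 3.43% of calls false. The simulated noise was independent between probes and arrays, and the shift was larger than the mean of any of the 36 genes. These rates therefore do not describe how the fit performs on the 36.

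The genes, the lists and the background rule were chosen with earlier results of these data known. The livers are labelled as separate animals' livers, and p-values measure the spread between 4 arrays. Motifs were searched in RefSeq promoters of GRCm38.p6, which held 28 of the 36 genes. Beyond these promoters, no genome or protein sequence was used here. Alternatives covered background, source of values, normalization, the filter on dim probes, flagged spots, a second term for dye, single channels, the SAM test named in the study's methods (rebuilt with all 16 sign flips), thresholds, the probe of a gene, and each array left out in turn.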

Additional observations from a re-analysis of the deposited data

Results flagged for a closer look

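Of 60 genes and gene lists examined for an array far from the other 3, 6 stood apart, where chance gives about 1 in 20. Pex11a was at -0.24 on replicate 1, with the gap to the nearest array taking 0.912 of its range. Slc25a20 was at -0.13 on replicate 1, with a gap of 0.835 of its range. The median of the peroxisomal genes was -0.29 on replicate 1, with a gap of 0.905 of the range. The median of the 124 other pathway genes was -0.019 on replicate 1, with a gap of 0.852 of the range. The median of the other omega-oxidation genes was 0.50 on replicate 3, with a gap of 0.839 of the range. The median of the pancreatic acinar markers was -3.37 on replicate 3, with a gap of 0.983 of the range. Of these 6, 4 lie on replicate 1, and genes of one pathway measured on one array are not independent of each other.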

How the results depend on the processing

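The number of the 36 genes called higher was 2 as reported and moved under several settings. It was 0 with normexp on all spots, where 0.0311% of all genes were called higher, 1 without the filter on dim probes (0.841% of all genes), 1 at an adjusted p under 0.05 (1.47%) and 1 at a 2-fold limit (0.536%), 4 with the dye effect as a second term (2.08%) and 5 with rebuilt SAM (2.11%). The 5 of SAM were Pdk4, Acot1, Cyp4a14, Cpt1a and Cyp4a10. With normexp on all spots Pdk4 had a mean of 0.37 and Cpt1a one of 0.71, the latter at an adjusted p of 0.552 (range over its alternatives 0.00488 to 0.552). The cause of these moves was not tested, beyond the stricter limits, which lower the count by construction. Leaving out single arrays gave 1 to 9. The 9 came without replicate 1 (2.2% of all genes), and the 1 gene left without replicate 2, 3 or 4 (1.42%, 1.15% and 1.59%) was Cpt1a. Separate channels with the array as a replicate block gave 3 (1.86%), adding Acot1, so that the block for the pairing on the array moved the count by no more than 1.5 times. The number called lower was 0 under all 20 alternatives, where 0.0934% to 4.39% of all genes were called lower.

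The median ratio of the 36 genes was above 0 under all 20 alternatives, from 0.15 with median centring to 0.41 without replicate 1. Median centring shifted the median of all genes to -0.06. Acot1 was called under 5 alternatives, Cyp4a14 under 3 and Cyp4a10 under 1, and no gene of the 36 that was called turned its sign. Signals of all 36 genes were above background in every liver. The mean of Pdk4 ran from 0.37 with normexp on all spots to 2.04 with the processed signals.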
